A study of Homo sapiens with 4 samples.

Results

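The subunits of Polycomb repressive complex 2 (PRC2) were examined in Ishikawa cells with a *CDYL* shRNA. They were the 10 genes *EZH1*, *EZH2*, *SUZ12*, *EED*, *JARID2*, *RBBP4*, *RBBP7*, *MTF2*, *PHF19* and *PHF1*, taken by name out of the 58522 genes in the table, and each was found under 1 Ensembl identifier. The Ishikawa cell line, long established from a human endometrial adenocarcinoma, is labelled as endometrial epithelial. In the presence of polybrene, cells were transduced with either an shRNA against *CDYL* (*CDYL*-sh) or a negative control shRNA (control) and then selected with puromycin. RNA was sequenced from 2 libraries of each group. The titles of the *CDYL*-sh libraries end in sh1 and sh2, which may number replicates or name different hairpins, since the study lists hairpins under the same names. They are called replicates 1 and 2 here, and if the hairpins differed, the spread within the group holds that difference too. No label says that libraries were grown as independent cultures, so the p-values measure the spread between these libraries only.

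PRC2 places methyl groups on H3K27, a mark that keeps developmental genes silent. EZH2 or its paralog EZH1 carries the catalytic SET domain, and neither is active without SUZ12, which scaffolds the complex, and EED, which binds the methyl mark and stimulates the enzyme. The histone-binding proteins RBBP4 and RBBP7 complete the core. Accessory proteins then define different forms of the complex, with the Polycomb-like proteins PHF1, MTF2 and PHF19 in one form and JARID2 in another. CDYL is a chromodomain protein that binds methylated H3K27 and associates with PRC2. The transcripts of the complex are compared here between cells with reduced *CDYL* and control cells.

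*SUZ12* was the PRC2 gene that rose most in *CDYL*-sh cells, by 1.64-fold, and *MTF2* rose by 1.36-fold with an adjusted p just under the threshold. None of the other 8 genes passed the test, including both catalytic subunits. Thus 2 of 10 members were higher and 0 were lower, beside 13.6% higher, 12.1% lower and 25.7% in either direction of the 16158 genes tested. The test was edgeR's quasi-likelihood test, with p-values adjusted by Benjamini-Hochberg over all genes tested and a threshold of 0.05. The 10 members had a median log2 fold change of 0.09, against 0.01 over all genes tested. That median was 0.056 without *CDYL*-sh replicate 1, 0.14 and 0.15 on the log2 FPKM scales, and 0.22 with offsets for base composition. The number of members called in either direction was no larger than the 25.7% of all genes called would give. With those offsets it was 4 of 10, beside 32.2% of all genes. Counts out of 10 cannot be told from such shares, and the members are described one by one. Without *CDYL*-sh replicate 2, 2082 genes passed in place of 4157. In bulk RNA, less of a transcript per cell and fewer cells that carry it cannot be told apart.

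The libraries were of similar depth. They held 22341852 to 27451007 expected counts in *CDYL*-sh and 26981051 to 27688447 in control. *CDYL* itself stood at 11.4 and 9.70 CPM (counts scaled to a common library size) in *CDYL*-sh, against 50.4 and 53.0 CPM in control, which was a log2 fold change of -2.28 (standard error, SE, 0.13; edgeR, adjusted p = 4.26e-09). All 6 epithelial markers were measured, led by *KRT8*, with a sum of 3406 to 3615 CPM in *CDYL*-sh and 3625 to 3969 CPM in control. The 5 stromal markers, mostly *COL1A1*, summed to 11.5 to 12.6 CPM in *CDYL*-sh and 18.0 to 21.6 CPM in control, with *COL3A1* at 0 in every library. The 3 endothelial markers summed to 7.89 to 8.70 CPM in *CDYL*-sh and 3.66 to 4.26 CPM in control. Of these, *PECAM1* was higher (log2 fold change 1.65, SE 0.25), while *CDH5* (-1.19, SE 0.50) and *VWF* (0.62, SE 0.32) did not pass. The 4 leukocyte markers summed to 18.4 to 20.9 CPM in *CDYL*-sh and 8.11 to 12.3 CPM in control, nearly all of it *CD68*, at 20.6 and 18.1 CPM in *CDYL*-sh, against 7.75 and 11.6 CPM in control. *PTPRC*, which defines leukocytes, had 1 count in each *CDYL*-sh library and 0 in each control library, *CD3E* was at 0 in every library, and *LYZ* stood at 0.214 and 0.227 CPM in *CDYL*-sh, against 0.359 and 0.678 CPM in control. The part of such cells in the PRC2 values was not tested. The labels name no batch.

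Promoters of the 2 genes that passed the test are shown with those of *EZH2* and *EED*, which did not. Each is the run of 250 bases before a RefSeq start of the gene on GRCh38.p14, the only one listed except for *EZH2*, read 5′ to 3′ on the strand of the gene. Capitals mark matches, on either strand, to the CCAAT box (CCAAT) or to an E2F-type site (TTTNNCGC). *SUZ12* is shown from chr17:31936757-31937006 (plus strand), *MTF2* from chr1:93079033-93079282 (plus strand), *EZH2* from chr7:148884292-148884541 (minus strand) and *EED* from chr11:86244503-86244752 (plus strand).
SUZ12: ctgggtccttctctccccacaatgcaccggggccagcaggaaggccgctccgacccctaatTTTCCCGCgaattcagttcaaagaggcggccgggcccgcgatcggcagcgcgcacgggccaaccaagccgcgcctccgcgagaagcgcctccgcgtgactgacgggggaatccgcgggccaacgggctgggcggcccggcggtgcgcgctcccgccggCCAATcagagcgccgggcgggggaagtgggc
MTF2: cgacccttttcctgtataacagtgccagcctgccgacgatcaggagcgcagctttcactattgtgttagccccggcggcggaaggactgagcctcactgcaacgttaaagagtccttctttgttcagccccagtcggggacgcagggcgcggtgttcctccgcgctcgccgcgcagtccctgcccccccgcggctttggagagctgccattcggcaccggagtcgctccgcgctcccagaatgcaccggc
EZH2: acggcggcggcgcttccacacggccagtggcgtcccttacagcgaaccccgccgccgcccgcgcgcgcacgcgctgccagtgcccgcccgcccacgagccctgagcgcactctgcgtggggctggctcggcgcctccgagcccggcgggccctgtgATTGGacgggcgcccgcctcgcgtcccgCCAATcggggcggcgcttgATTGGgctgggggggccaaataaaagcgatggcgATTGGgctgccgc
EED: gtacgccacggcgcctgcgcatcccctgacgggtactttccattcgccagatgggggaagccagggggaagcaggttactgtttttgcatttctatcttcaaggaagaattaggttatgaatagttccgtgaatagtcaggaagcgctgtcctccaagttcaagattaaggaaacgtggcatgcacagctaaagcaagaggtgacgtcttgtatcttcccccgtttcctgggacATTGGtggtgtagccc

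The *SUZ12* promoter held 1 E2F-type match and 1 CCAAT box, the *EZH2* window shown held 4 CCAAT boxes, and the *EED* promoter held 1. A second *EZH2* window, at chr7:148883486-148883735, held no match to any motif searched. No match to either motif was found in the *MTF2* window. Of the 15 RefSeq windows of the 10 members, 10 held a CCAAT box (7 members) and 4 an E2F-type match (*EZH1*, *SUZ12*, *RBBP7* and *PHF19*). Of 34788 distinct promoter windows of the same length, 32.0% held a CCAAT box and 5.89% an E2F-type match. A YY1-type run (AAGATGGC) was in 2 of the 15 windows and in 1.36% of all windows. The NRF1 palindrome and the ETS-type run (CCGGAAGT) were in 0 of the 15 and in 1.02% and 3.41% of all windows. Some members have more than 1 window, and those of *RBBP4* overlap and hold a CCAAT box in common. Windows are thus not independent, and their counts were not tested against the shares of all windows. The *EED* window had a GC content of 51.2%, against 64.4% for *MTF2*, 72.8% for *SUZ12* and 75.6% for *EZH2*. A match is a run of letters and was not tested as a binding site, and the members with an E2F-type match included both *SUZ12*, which passed the test, and *EZH1*, which did not.

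The targets that the study lists for its *CDYL* shRNAs were compared with the annotated transcripts of the PRC2 genes, because a hairpin with a second target among them would bear on these values. The longest run shared with a *SUZ12* transcript is in capitals.
Target of CDYL-sh1: gcgtCTTCTGTTGtggacttgactt
Target of CDYL-sh2: gcaagataatGGGAGGAGcatctgca
Target of CDYL-sh3: gAGATATTGtggtcaggaa

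These runs were 9, 8 and 8 bases long. Over all 10 members the longest shared run was 8 to 10 bases for *CDYL*-sh1, 8 to 10 for *CDYL*-sh2 and 8 to 9 for *CDYL*-sh3, and 6 to 9 bases for the negative control, in transcripts read in the sense direction. No listed target therefore matched a PRC2 transcript over its full length. Matches of the seed alone were not examined.

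The catalytic subunits did not pass the test. *EZH2* (ENSG00000106462), the main methyltransferase of dividing cells, is on chromosome 7 of GRCh38 (minus strand), 148807257 to 148884321. It measured 37.5 and 35.3 CPM in *CDYL*-sh, against 38.0 and 32.2 CPM in control. Both *CDYL*-sh values lay between the 2 control values, and the log2 fold change was 0.05 (SE 0.12; edgeR, adjusted p = 0.789). *EZH1* (ENSG00000108799), the paralog that is better known from resting cells, is on chromosome 17 (minus strand), 42700275 to 42745049. Its level was 16.2 and 15.4 CPM in *CDYL*-sh, against 14.5 and 14.7 CPM in control. The groups did not overlap, but the log2 fold change of 0.12 was smaller than its standard error of 0.15 (adjusted p = 0.594 from edgeR).

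The balance between both enzymes was read from FPKM, fragments scaled for gene length and library size, which can be compared between genes. The *EZH1* level was 0.427 ± 0.0354 of the *EZH2* level in *CDYL*-sh and 0.393 ± 0.0673 in control (SD, n = 2 each). The per-library ratios were 0.452 and 0.402 in *CDYL*-sh, against 0.346 and 0.441 in control. These ranges overlapped. The ratio depends on the length used: as counts per kilobase of annotated exon it was 0.669 in *CDYL*-sh and 0.645 in control. With 2 libraries against 2, an exact permutation test cannot give a two-sided p below 0.333, and none was run.

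*SUZ12* (ENSG00000178691) is on chromosome 17 (plus strand), 31937007 to 32001038. It encodes the scaffold that joins the catalytic subunit to the rest of the core and without which the complex is unstable. It stood at 48.1 and 50.1 CPM in *CDYL*-sh, against 30.4 and 29.5 CPM in control, with no overlap and with a gap far wider than the spread within either group. The log2 fold change was 0.71 (SE 0.12; edgeR, adjusted p = 0.000263). On the FPKM scale *SUZ12* measured 12.4 ± 0.00707 in *CDYL*-sh and 8.07 ± 0.191 in control (SD, n = 2 each).

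The expected count of *SUZ12* was whole, to within 0.001, in only 1 of 4 libraries, so some of its reads were divided with other genes. Its pseudogene *SUZ12P1*, on the same chromosome, could take such reads. *SUZ12P1* (ENSG00000264538) held 182 and 157 expected counts in *CDYL*-sh, against 166 and 149 in control, and did not pass the test (log2 fold change 0.23, SE 0.19, adjusted p = 0.413 from edgeR). With the counts of both genes summed, the level was 54.6 and 57.2 CPM in *CDYL*-sh, against 36.4 and 35.1 CPM in control. The log2 fold change of the sum was 0.64 (SE 0.11; edgeR, adjusted p = 0.000491), which does not depend on how reads were divided between the gene and its pseudogene. The summed expected counts were still not whole, at 1527.66 and 1262.46 in *CDYL*-sh, against 1013.94 and 932.37 in control. Some reads were therefore also divided with further genes, which were not identified. The pseudogene took 11.9% and 12.4% of the sum in *CDYL*-sh and 16.4% and 16.0% in control.

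*EED* (ENSG00000074266, chromosome 11, plus strand, 86201212 to 86278813), the subunit that reads the methyl mark, did not pass the test. It measured 14.5 and 16.5 CPM in *CDYL*-sh, against 15.6 and 14.96 CPM in control, and the control values lay between those of *CDYL*-sh. The log2 fold change was 0.02 (SE 0.15; edgeR, adjusted p = 0.938). In FPKM, *SUZ12* was thus above *EED* in *CDYL*-sh, at 1.40 and 1.21 times its level. In control it was below *EED*, at 0.870 and 0.843 times. This order depends on the length used, as the annotated exons span 6551 bases for *SUZ12* and 6995 for *EED*. *SUZ12* held more counts than *EED* in every library, with 848 and 784 in control, against 434 and 397. Per kilobase of annotated exon, *SUZ12* was therefore above *EED* in both groups. *SUZ12* stood at 0.720 and 0.780 of the *EZH2* FPKM in *CDYL*-sh, against 0.474 and 0.549 in control.

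The histone-binding subunits were the most abundant members and serve other chromatin complexes as well. *RBBP4* (ENSG00000162521, chromosome 1, plus strand, 32651142 to 32686211) measured 234 and 223 CPM in *CDYL*-sh, against 259 and 224 CPM in control. Its log2 fold change was -0.08 (SE 0.11; edgeR, adjusted p = 0.618). In FPKM it measured 146 and 141 in *CDYL*-sh, against 174 and 150 in control, and there the groups did not overlap. *RBBP7* (ENSG00000102054, chromosome X, minus strand, 16839283 to 16870362) measured 249 and 221 CPM in *CDYL*-sh, against 232 and 220 CPM in control. Its log2 fold change was 0.06 (SE 0.11; edgeR, adjusted p = 0.730). *RBBP4* had no whole count in any library, but its counts and those of *SYNC*, which overlaps it on the opposite strand, summed to whole numbers in all 4. *SYNC* held 34.7 and 24.5 expected counts in *CDYL*-sh, against 50.8 and 35.3 in control. The 7 *RBBP4* processed pseudogenes in the table held at most 1 count in a library.

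**Figure D1:**
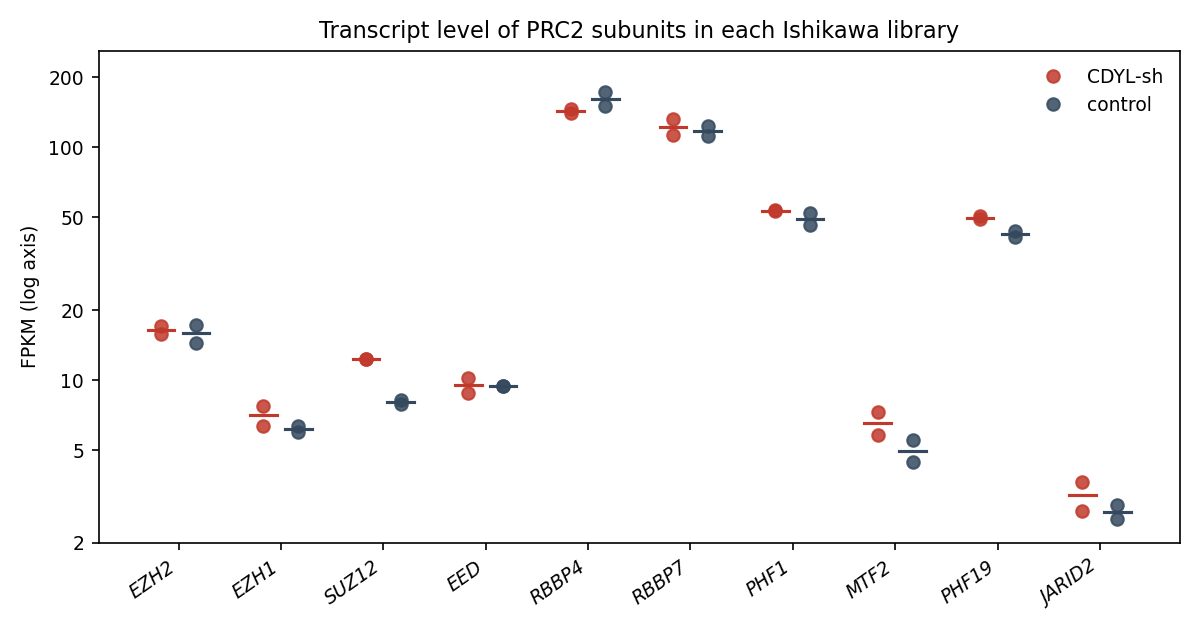
FPKM (log axis) of each PRC2 gene in the 2 *CDYL*-sh libraries (red) and the 2 control libraries (dark blue), with 1 point per library and a line at the group mean. *SUZ12* sits at 12.4 in *CDYL*-sh and near 8.07 in control, and the order of the other members is the same in both groups.

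Among the Polycomb-like proteins, which bring PRC2 to chromatin, *MTF2* was higher in *CDYL*-sh. *MTF2* (ENSG00000143033, chromosome 1, plus strand, 93079235 to 93139079) measured 15.4 and 15.9 CPM in *CDYL*-sh, against 12.7 and 10.3 CPM in control. The groups did not overlap, and control replicate 2 was the lowest library. The log2 fold change was 0.44 (SE 0.16; edgeR, adjusted p = 0.0495). This call was lost in 10 of 17 alternatives, and over all 17 the log2 fold change ranged from 0.23 to 0.59. Without control replicate 2 it was 0.30 (adjusted p = 0.176), without *CDYL*-sh replicate 1 it was 0.45 (adjusted p = 0.178), and without *CDYL*-sh replicate 2 it was 0.42 (adjusted p = 0.258, all from edgeR, within 0.0146 to 0.296 over the alternatives).

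*PHF1* (ENSG00000112511, chromosome 6, plus strand, 33410399 to 33416453) measured 77.3 and 87.6 CPM in *CDYL*-sh, against 69.3 and 79.5 CPM in control, with overlapping groups. The log2 fold change was 0.15 (SE 0.11; edgeR, adjusted p = 0.361). Its 3′ end overlaps that of *CUTA* on the opposite strand, which rose by 0.40 on the log2 scale (SE 0.11; edgeR, adjusted p = 0.0123). *PHF19* (ENSG00000119403, chromosome 9, minus strand, 120855651 to 120894896) measured 47.7 and 48.3 CPM in *CDYL*-sh, against 46.4 and 46.1 CPM in control. The groups did not overlap, but the log2 fold change was only 0.05 (SE 0.11; edgeR, adjusted p = 0.762).

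*JARID2* (ENSG00000008083, chromosome 6, plus strand, 15246069 to 15522042), which marks the other form of the complex, had the lowest FPKM of the members in both groups. It measured 19.3 and 14.95 CPM in *CDYL*-sh, against 15.6 and 13.8 CPM in control. The second *CDYL*-sh library lay between the controls, and the log2 fold change was 0.22 (SE 0.16; edgeR, adjusted p = 0.326). In CPM, 4 members had groups that did not overlap (*EZH1*, *SUZ12*, *MTF2* and *PHF19*), and each was higher in *CDYL*-sh. Over all genes tested, 64.3% did not overlap in either direction, 32.5% with *CDYL*-sh higher and 31.8% with *CDYL*-sh lower.

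**Figure D2:**
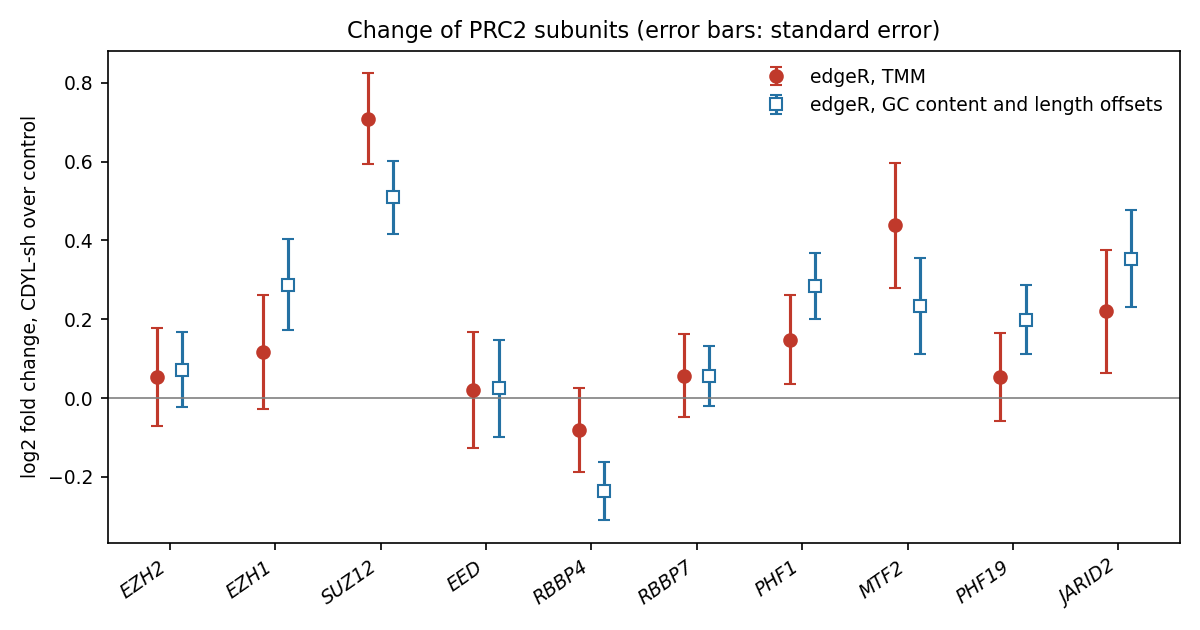
Log2 fold change of each PRC2 gene, *CDYL*-sh over control, with its standard error, from edgeR with TMM (red circles) and from edgeR with length and GC content offsets (open blue squares). *SUZ12* lies highest with both, at 0.71 and 0.51, and *EZH2* and *EED* lie near 0 with both.

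The direction of change in these libraries moved with base composition, and the members differed in it. *MTF2* and *SUZ12*, the 2 members that passed, had the lowest GC content, at 37.5% and 38.2% of the canonical transcript. The other 8 lay between 41.4% (*RBBP4*) and 59.5% (*PHF1*). Of the 2422 tested genes under 40% GC, 26.1% passed as higher in *CDYL*-sh and 4.05% as lower, with a median log2 fold change of 0.23. In the range of 50 to 55%, 7.05% of 2495 genes were higher and 18.6% were lower, with a median of -0.11. From 40 to 45%, the range of *EZH2*, *EED*, *RBBP4* and *RBBP7*, 19.0% of 3145 genes were higher and 8.11% lower (median 0.09). The trend did not go on to the highest GC content. At 60% or more, 11.6% of 2672 genes were higher and 12.8% lower (median -0.013).

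The fit was therefore repeated with offsets that level each library over GC content and length, after which the median of the genes under 40% GC was 0.02. *SUZ12* passed with a log2 fold change of 0.51 (SE 0.09; edgeR, adjusted p = 0.000882). *MTF2* did not pass, at 0.23 (SE 0.12; edgeR, adjusted p = 0.159). *PHF1* (0.29, adjusted p = 0.0179) and *JARID2* (0.35, adjusted p = 0.0407) passed as higher and *RBBP4* as lower (-0.24, adjusted p = 0.0238, all from edgeR). That made 3 members higher and 1 lower, beside 17.6% higher and 14.6% lower of all genes tested with the same offsets. *SUZ12* was the only member called both with and without the offsets. The part of base composition in the other calls was not tested beyond this fit.

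**Figure D3:**
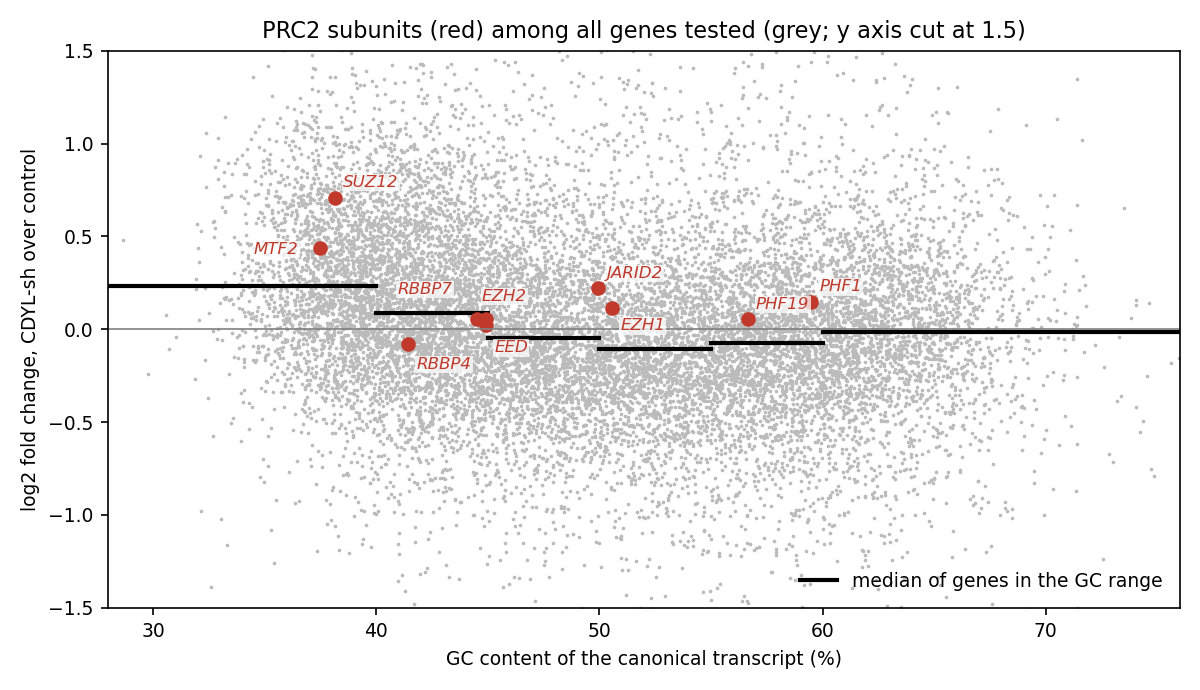
Log2 fold change, *CDYL*-sh over control, of each tested gene (grey points) over the GC content of its canonical transcript (%), cut at 1.5 on the log2 scale, with the median of each GC range as a black line and the PRC2 genes in red. *SUZ12* (0.71) and *MTF2* (0.44) lie in the range under 40%, whose median is 0.23.

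*SUZ12* kept its direction in all 18 alternatives, with log2 fold changes of 0.51 to 0.73, and passed in 16. It did not pass with limma on log2(FPKM + 1) (0.56, adjusted p = 0.0701) or log2(FPKM + 0.1) (0.61, adjusted p = 0.0631), against a lowest adjusted p of 2.13e-06. On that scale 461 and 507 genes passed in all, and no PRC2 gene did. Leaving out 1 library at a time gave log2 fold changes of 0.68 to 0.72 for *SUZ12*, each of which passed.

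**Figure D4:**
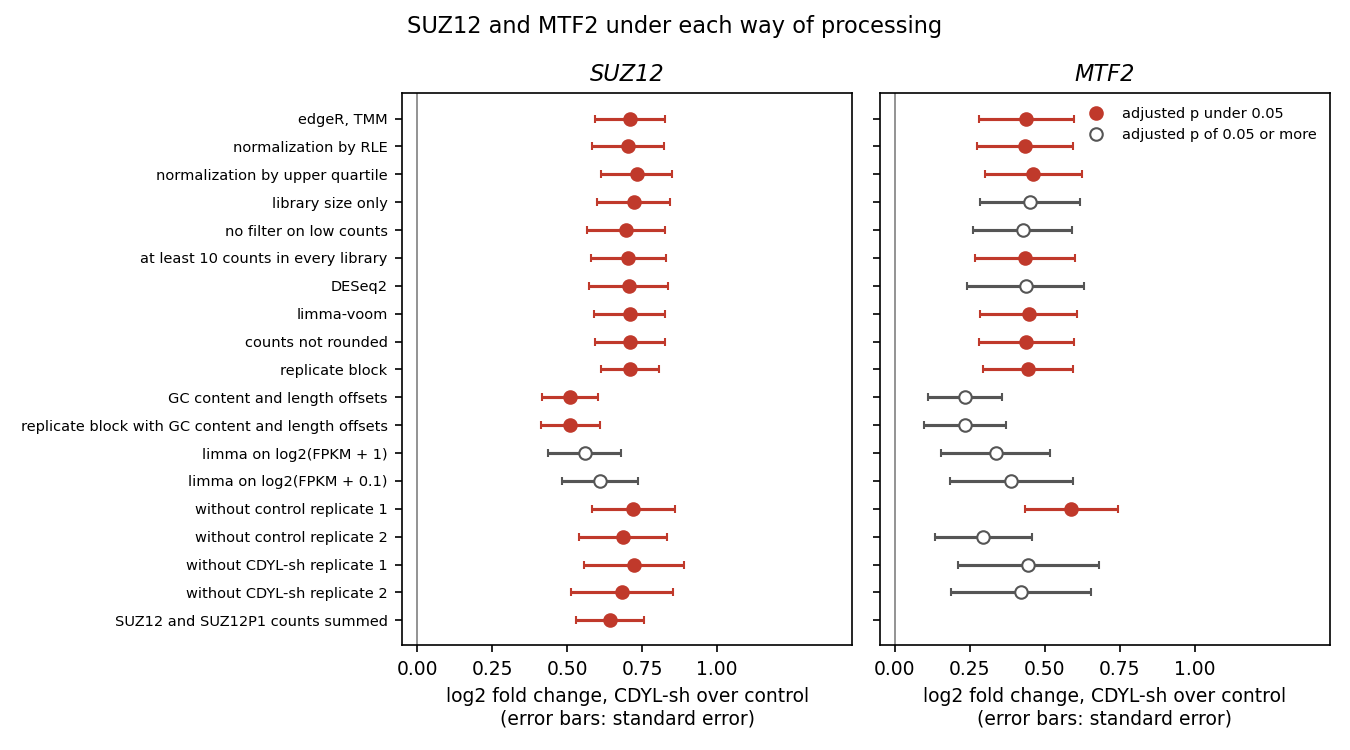
Log2 fold change, *CDYL*-sh over control, of *SUZ12* (left) and *MTF2* (right) with its standard error under each way of processing, filled in red where the adjusted p was under 0.05. *SUZ12* stays between 0.51 and 0.73 and *MTF2* between 0.23 and 0.59, and *MTF2* is filled in fewer rows.

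In FPKM, transcript levels spanned a wide range within the complex. The order rests on the lengths that the authors' program used, and other lengths change it. With the canonical transcripts, at 7883 bases for *RBBP4* and 2281 for *RBBP7*, *RBBP4* would stand below *RBBP7*. In *CDYL*-sh the order of mean FPKM was *RBBP4* (143 ± 3.36), *RBBP7* (123 ± 13.02), *PHF1* (53.5 ± 0.354), *PHF19* (49.9 ± 1.03), *EZH2* (16.5 ± 0.933), *SUZ12* (12.4 ± 0.00707), *EED* (9.52 ± 1.01), *EZH1* (7.06 ± 0.983), *MTF2* (6.56 ± 1.05) and *JARID2* (3.21 ± 0.644; SD, n = 2 each). *EZH1* and *MTF2* overlapped there, and no other neighbours in the order did. In control the order was the same except that *EED* (9.42 ± 0.0141) stood above *SUZ12* (8.07 ± 0.191, SD, n = 2 each), and no neighbours overlapped. All 10 members together took 0.0774% and 0.0719% of the counts in *CDYL*-sh, against 0.0738% and 0.0674% in control, so the sum did not separate the groups.

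FPKM and count together also give the mean length over which the authors' program spread the reads of a gene, which moves with the mix of its transcripts. This implied length was 990 and 942 bases for *PHF19* in *CDYL*-sh, against 1132 and 1032 in control, or 0.893 times. The *PHF19* groups stood further apart in FPKM, at 49.1 and 50.6 in *CDYL*-sh, against 41.2 and 43.9 in control, than in CPM. For *SUZ12* it was 3970 and 4005 bases in *CDYL*-sh, against 3735 and 3662 in control, and for *RBBP4* 1636 and 1565, against 1499 and 1470, in each case 1.08 times. Over 12614 genes the median ratio was 1.003, the 10th and the 90th percentile were 0.919 and 1.12, and the groups did not overlap for 46.1%. *PHF19* was thus outside that range and *SUZ12* and *RBBP4* were inside it. Transcripts of a gene were not measured separately.

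The genes whose pattern over the 4 libraries was closest to that of *EZH2*, by Euclidean distance of centred log2 CPM among 9466 genes with at least 10 CPM, were *HSDL1* (0.01), *STK4* (0.02) and *KLHL20* (0.02). For *EZH1* they were *TMEM230* (0.01), *HELZ2* (0.02) and *SIDT2* (0.02). None of these 6 genes had a log2 fold change above 0.12, which follows from how they were chosen and is no separate result. Closeness over 4 libraries was not tested as shared regulation.

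Other genes of PRC2 moved in both directions. Of 6 measured accessory and regulatory genes, 1 was higher and 2 were lower in *CDYL*-sh, beside 13.6% higher and 12.1% lower of all genes, with a median log2 fold change of 0.06. With the offsets 0 were higher and 2 lower, with a median of -0.09. Without *CDYL*-sh replicate 2, 1 of the 6 passed. *EPOP*, which in mouse embryonic stem cells joins PRC2 to elongin, fell most. It stood at 14.5 and 13.5 CPM in *CDYL*-sh, against 27.2 and 24.0 CPM in control, a log2 fold change of -0.87 (SE 0.14; edgeR, adjusted p = 0.000222), and at -0.82 with the offsets (adjusted p = 0.000212). *PPP1R8*, a phosphatase regulator known to bind EZH2, had a log2 fold change of -0.37 (SE 0.11, adjusted p = 0.0217). *LCORL*, at a GC content of 34.9%, had one of 0.63 (SE 0.21, adjusted p = 0.0376) and did not pass with the offsets (0.31, adjusted p = 0.226). *LCOR* did not pass, at 0.17 (SE 0.14), and neither did *AEBP2*, the partner of JARID2, at 0.06 (SE 0.13). *EZHIP*, an inhibitor of EZH2, had 0 to 4 counts in a library and was removed by the filter.

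Enzymes that remove methyl groups from H3K27 went both ways, with 1 of 4 higher and 1 lower, beside 25.7% of all genes in either direction. Leaving out control replicate 1 ended both calls, as did leaving out *CDYL*-sh replicate 2, and the number called was 1 without *CDYL*-sh replicate 1. The demethylases *KDM6A* (0.20, SE 0.14) and *KDM6B* (-0.09, SE 0.12) did not pass. *PHF8*, a demethylase of other histone lysines as well, had a log2 fold change of -0.43 (SE 0.13, adjusted p = 0.0167), and the low-abundance *KDM7A* one of 0.93 (SE 0.28, adjusted p = 0.0198), which did not pass with the offsets (0.63, adjusted p = 0.0840).

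**Figure D5:**
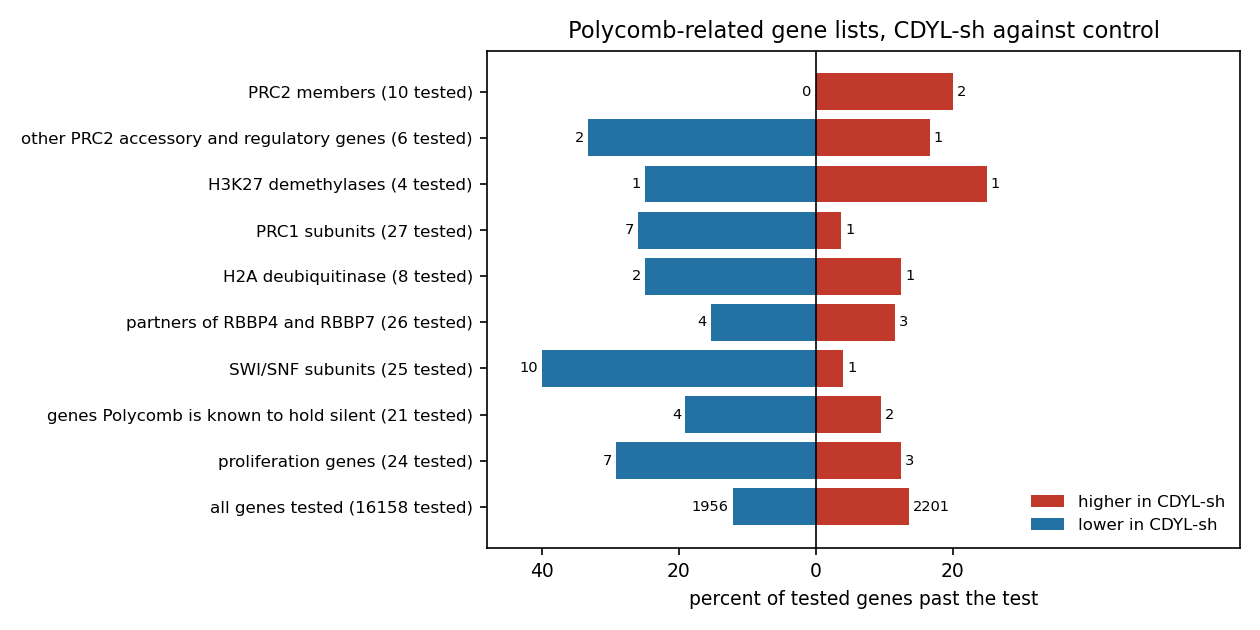
For each gene list, the share of tested genes (%) that passed as higher in *CDYL*-sh (red bars, rightward) or lower (blue bars, leftward), each bar with its gene count. PRC2 members have 2 higher and 0 lower, PRC1 subunits 1 and 7, SWI/SNF subunits 1 and 10, and all genes tested 2201 and 1956.

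PRC1, the partner complex that ubiquitinates histone H2A and can bind the mark that PRC2 makes, had 1 gene higher and 7 lower of 27 tested, beside 13.6% higher and 12.1% lower of all genes. The median log2 fold change was -0.11, against 0.01 over all genes. The number called was 5 without *CDYL*-sh replicate 1 and 4 without *CDYL*-sh replicate 2. The 4 genes with the lowest adjusted p belong to variant PRC1. *BCOR* stood at 46.4 and 40.5 CPM in *CDYL*-sh, against 80.3 and 71.8 CPM in control, a log2 fold change of -0.81 (SE 0.12; edgeR, adjusted p = 8.30e-05). Its relative *BCORL1* had one of -0.56 (SE 0.11), *PCGF3* one of -0.52 (SE 0.11) and the DNA-binding *KDM2B* one of -0.49 (SE 0.11). The gene that was higher was *MGA* (0.61, SE 0.15), the scaffold of another variant PRC1. With the offsets these 5 passed, and 3 PRC1 genes were higher and 6 lower, with a median of -0.083. Other variant PRC1 genes did not pass, among them *PCGF1*, *PCGF5*, *PCGF6*, *RYBP*, *YAF2* and *L3MBTL2*. Their log2 fold changes ran from -0.22 (*L3MBTL2*) to 0.10 (*PCGF5*). The lower genes were not confined to variant PRC1, since *CBX2* (-0.49, SE 0.12) and *PHC1* (-0.41, SE 0.13) were also lower. With the offsets *CBX2* passed (-0.35, adjusted p = 0.0103) and *PHC1* did not (-0.265, adjusted p = 0.0513, both from edgeR). Of 8 genes tied to H2A deubiquitination, which opposes PRC1, 3 passed, beside 25.7% of all genes. *USP16*, a deubiquitinase separate from BAP1, was higher (log2 fold change 1.09, SE 0.16). *HCFC1* (-0.60, SE 0.10) and *ASXL1* (-0.51, SE 0.11) were lower. *BAP1*, itself a deubiquitinase gene, did not pass, at 0.06 (SE 0.10), and passed with the offsets (0.21, adjusted p = 0.0391 from edgeR).

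RBBP4 and RBBP7 also belong to the NuRD, SIN3 and CAF-1 complexes and to the histone acetyltransferase HAT1. Of 26 tested partners, 3 were higher and 4 were lower, a share close to the 25.7% of all genes, with a median log2 fold change of -0.085. With the offsets 5 were higher and 6 lower, with a median of -0.02. *HAT1*, whose product works with RBBP7, stood at 38.3 and 53.2 CPM in *CDYL*-sh, against 28.5 and 22.4 CPM in control, a log2 fold change of 0.84 (SE 0.15; edgeR, adjusted p = 0.000672). The 4 lower genes were all of NuRD: *MTA2* (-0.56, SE 0.10), *CHD3* (-0.61, SE 0.11), *GATAD2B* (-0.41, SE 0.11) and *GATAD2A* (-0.35, SE 0.10). NuRD as a whole did not fall. In the same fit, without offsets, its genes *HDAC1*, *HDAC2*, *MTA1*, *MTA3*, *CHD4*, *MBD2* and *MBD3* did not pass. Their log2 fold changes ran from -0.28 (*HDAC1*) to 0.17 (*MTA3*). The remodeller genes *SMARCA5* (0.56, SE 0.12) and *BPTF* (0.48, SE 0.14) were higher. SWI/SNF remodellers, which oppose Polycomb silencing, had 1 gene higher and 10 lower of 25 tested, beside 13.6% higher and 12.1% lower of all genes, with a median log2 fold change of -0.17. The number called was 7 without control replicate 1 or *CDYL*-sh replicate 1 and 6 without *CDYL*-sh replicate 2. The ATPase genes went opposite ways, with *SMARCA4* at -0.60 (SE 0.11) and *SMARCA2* at 0.63 (SE 0.12). *SS18* (-0.81, SE 0.12) and *ARID1A* (-0.58, SE 0.12) were also lower. With the offsets 2 SWI/SNF genes were higher and 9 were lower, and the median was -0.045.

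Of 41 genes that Polycomb is known to hold silent in other cells, 21 were expressed enough to be tested and 10 had no count in any library. Among those tested, 2 were higher and 4 were lower, a share close to the 25.7% of all genes, with a median log2 fold change of -0.18 and, with the offsets, of -0.11. *CDKN2B*, a cyclin-dependent kinase inhibitor, stood at 9.43 and 8.20 CPM in *CDYL*-sh, against 5.06 and 4.37 CPM in control, a log2 fold change of 0.89 (SE 0.20; edgeR, adjusted p = 0.00265). The transcription factor genes *SOX17* (-0.72, SE 0.10) and *DLX5* (-1.16, SE 0.18) were lower. H3K27 methylation was not measured in this series, so which of these genes carry the mark in Ishikawa cells is not known here.

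The transcription of several PRC2 genes is known to follow the cell cycle through E2F factors, and proliferation genes moved in both directions. Of 24 tested, 3 were higher and 7 were lower, beside 13.6% higher and 12.1% lower of all genes, with a median log2 fold change of -0.23. With the offsets 4 were higher and 5 lower, with a median of -0.105. The number called was 5 without *CDYL*-sh replicate 2 and 6 when control replicate 1 was left out. *TOP2A* (0.98, SE 0.12) and *MKI67* (0.51, SE 0.12) were higher, while *UHRF1* (-0.91, SE 0.11) and *MCM2* (-0.58, SE 0.10) were lower. The list summed to 3628 to 3784 CPM in *CDYL*-sh, against 4009 to 4211 CPM in control, while *SUZ12* was higher and *EZH2* did not pass. The part of the cell cycle in the *SUZ12* value was not tested.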

How the data were processed

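Ishikawa cells with a *CDYL* shRNA or a negative control shRNA were profiled by RNA-seq, with 2 libraries in each group. Per the paper's methods, the authors made paired-end TruSeq libraries and used TopHat to align them to GRCh38.p10. RSEM and edgeR are further tools in the submitters' processing notes. The deposited table holds expected counts, which are estimated by the authors and often not whole, and FPKM, which the authors scaled for gene length and depth. Its annotation release is not given in the sources used here. Symbols were matched for 98.1% of identifiers, and positions, lengths and GC content came from GENCODE release 44 on GRCh38.

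Expected counts were rounded, filtered with filterByExpr (16158 genes), normalized by TMM and tested with edgeR 4.0.16 in R 4.3.3 (glmQLFit, glmQLFTest, prior count 2). CPM were counts scaled by TMM library sizes. The adjusted p of every gene came from this fit unless another tool is named. Total counts of 22341852 to 27688447 set the counting precision. All 10 members passed the filter. Alternatives were other normalizations and filters, DESeq2 1.42.0, limma 3.58.1 (voom, and log2 FPKM with a pseudocount of 1 or 0.1 and a mean of at least 0.5), counts not rounded, a replicate block, each library left out, and offsets from a smooth of log2 CPM on GC content and length per library (mgcv 1.9.3), which could be set for 98.0% of genes. With 1 library left in a group, that library is assumed to vary like the others. The sum of *SUZ12* and *SUZ12P1* was added after seeing the data. edgeR was also tried on simulated counts with known changes.

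The members and the other gene lists were chosen with earlier results of these data known. The text names all members, *CDYL*, up to 4 genes of each list by adjusted p, the most abundant marker of each cell type and the 3 genes closest in pattern to each enzyme. Genes outside that rule (*KDM6A*, *KDM6B*, *LCOR*, *AEBP2*, *EZHIP*, *BAP1*, *MGA*, *CBX2*, *PHC1*, *PCGF1*, *PCGF5*, *PCGF6*, *RYBP*, *YAF2*, *L3MBTL2*, *BPTF*, *GATAD2A*, *GATAD2B*, *HDAC1*, *HDAC2*, *MTA1*, *MTA3*, *CHD4*, *MBD2*, *MBD3*, *COL3A1*, *CDH5*, *VWF*, *PTPRC*, *CD3E*, *LYZ*, *CUTA*, *SYNC*, *SUZ12P1*) were named after their values were seen. A gene that the rule would name is not reported here. Promoter sequences are those of RefSeq on GRCh38.p14.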

Additional observations from a re-analysis of the deposited data

How the results depend on the processing

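The number of genes called was 4157, with 461 and 507 by limma on log2(FPKM + 1) and log2(FPKM + 0.1) and 2082 to 4006 with 1 library left out. Of the 10 PRC2 members, 2 were called. The count was 1 with library size only, with no filter and with DESeq2, 4 with the GC content and length offsets, also when combined with the replicate block, 0 with either FPKM scale, and 1 to 2 with 1 library left out, where *MTF2* was the call lost without control replicate 2, *CDYL*-sh replicate 1 or *CDYL*-sh replicate 2. The median log2 fold change of the members was 0.09, with 0.22 under the offsets and 0.22 with the replicate block added to them, and from 0.056 to 0.12 with 1 library left out. The 8 other lists held 50 called genes together, with 5 on either FPKM scale and 28 to 49 with 1 library left out, the lowest without *CDYL*-sh replicate 2. Members near 0 changed sign with 1 library left out, and their log2 fold changes ran from -0.06 to 0.166 for *EZH2* (below 0 without control replicate 2, and at -0.007 without *CDYL*-sh replicate 1), from -0.072 to 0.099 for *EED* (below 0 without *CDYL*-sh replicate 2, and at -0.009 without control replicate 2), from -0.182 to 0.016 for *RBBP4* (above 0 without control replicate 1) and from -0.049 to 0.144 for *RBBP7* (below 0 without *CDYL*-sh replicate 1). As counts per kilobase of annotated exon, the *EZH1* to *EZH2* ratio was 0.669 in *CDYL*-sh and 0.645 in control. The causes were not tested. The replicate block called 5393 genes, and *SUZ12* (0.71) and *MTF2* (0.44) as members, and it called 11 partners of RBBP4 and RBBP7 in place of 7 and 17 proliferation genes in place of 10. Libraries with the same number share only that number: their deviations had a Pearson correlation of 0.03 over the 16158 genes, which are not independent. Members with 273 to 540 counts a library (*MTF2*, *EED*, *EZH1*, *JARID2*) have the widest standard errors, 0.15 to 0.16.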
